A study of Drosophila melanogaster with 3 samples.

Results

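The cell cycle and mitosis genes considered here are 44 Drosophila melanogaster genes, listed by symbol. They fall by known role into 7 groups: cyclins, cyclin-dependent kinases and their regulators, the E2F and Rb factors, replication licensing, mitotic kinases with the chromosomal passenger complex, the spindle checkpoint with the activators of the anaphase-promoting complex, centromere proteins, and proteins of the spindle, centrosome and cytokinesis. All 44 symbols were found among the 13945 protein-coding genes annotated on the 6 chromosome arms, and 22 of the 44 carried a peak of the forkhead factor Jumeau (jumu) within 1 kb of a start site. The list was drawn up by name, with results of these data already known, so no test over it is given.

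Occupancy was measured by chromatin immunoprecipitation and sequencing (ChIP-seq) in whole embryos aged 0 to 24 hours, with both sexes pooled. The strain, jumu-MiMIC-GFP, carries an eGFP exon inside an intron of jumu, so that the gene makes a fusion protein and, per the description of the samples, an antibody against GFP was used. The antibody field of the labels names jumu instead, and which of these holds is not settled here. Sonicated chromatin of 200 to 800 bp was sequenced from 3 biological replicates, which form 1 group. The line was the same in all replicates, the embryos of a sample span all of embryogenesis and all tissues, and no control sample was analysed here. A peak is therefore an average over dividing and non-dividing cells, and how much of its signal comes from the antibody or from accessible DNA was not tested.

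Peak lists rather than reads were the starting point, so the sequencing depth is unknown. The optimal list, thresholded for reproducibility by the authors, held 3845 peaks, whose signal had a median of 181 and a minimum of 112.0. The signal is the authors' own value for each peak and is used only to describe, rank or filter peaks within a list. A relaxed list from the pooled replicates held 29812 peaks down to a signal of 34.3, and each replicate had a relaxed list of 30000. Replicate summits within 100 bp of an optimal summit were taken as matching, and 3411 optimal peaks (88.7%) were matched in all 3 replicates. Over its matched optimal peaks replicate 1 had a median signal of 74.8, replicate 2 of 58.1 and replicate 3 of 54.5, and a replicate's signal is given below relative to its own median.

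The cell cycle alternates DNA replication with mitosis. Cyclin-dependent kinases drive the transitions, licensing factors load the replicative helicase onto origins, and mitotic kinases, the spindle checkpoint and the anaphase-promoting complex order chromosome segregation. In the fly embryo the earliest nuclear divisions run on maternal products, and later divisions depend on zygotic transcription, above all of the Cdc25 phosphatase gene string (stg). Jumeau is a forkhead protein that binds DNA. Its known roles in the embryonic heart include the division of cardiac progenitors, where it acts with the mitotic kinase Polo.

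Sequence around the summits shows what the occupied DNA upstream of these genes looks like. Each window below is 101 bases centred on the summit of the strongest optimal peak, holds no annotated exon, and is written 5′ to 3′ on the strand of the gene, from the RefSeq genome sequence of the dm6 assembly. Capitals mark a match to a searched word on either strand. The windows are those of Cdk1 (chr2L:10386486-10386586, minus strand) and aurA (chr3R:11963000-11963100, plus strand), which hold the cell cycle genes homology region (CHR) word TTTGAA in reverse complement, Mcm2 (chr3R:8264865-8264965, plus strand) with the forkhead word ATAAACA, mad2 (chr3L:5813118-5813218, minus strand) with the DNA replication-related element (DRE) TATCGATA, and Bub3 (chr3R:29675493-29675593, minus strand) and Cenp-C (chr3R:8563986-8564086, plus strand), among the stronger peaks and with no match to any of the 8 kinds of word.
Cdk1: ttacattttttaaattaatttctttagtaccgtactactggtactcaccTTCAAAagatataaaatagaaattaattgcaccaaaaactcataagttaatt
aurA: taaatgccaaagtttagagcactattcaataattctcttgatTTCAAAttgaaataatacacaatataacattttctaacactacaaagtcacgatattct
Mcm2: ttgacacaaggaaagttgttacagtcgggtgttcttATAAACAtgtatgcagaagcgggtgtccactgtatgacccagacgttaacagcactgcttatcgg
mad2: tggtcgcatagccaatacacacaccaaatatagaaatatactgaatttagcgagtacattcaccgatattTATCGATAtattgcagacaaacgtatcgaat
Bub3: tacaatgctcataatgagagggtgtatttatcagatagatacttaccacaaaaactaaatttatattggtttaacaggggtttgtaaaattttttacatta
Cenp-C: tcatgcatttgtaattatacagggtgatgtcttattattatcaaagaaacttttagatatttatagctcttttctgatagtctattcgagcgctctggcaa

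The first question was how many of the genes had a peak at their start and how strong it was. A gene was called when any of its annotated start sites had an optimal summit within 1 kb. By this rule 22 of the 44 genes (50%) were called, against 22.4% of all protein-coding genes. The strongest peak per called gene had a median signal of 202, with quartiles of 149 and 299, and over the other 3103 called protein-coding genes the median was 197. A larger share of these genes than of all genes was thus called, while their peaks differed little in median strength from those of other called genes. The strongest lay at aurA (signal 382, rank 501 of the optimal list), Bub3 (377, rank 523) and dup (347, rank 621), and the weakest at CycD (121, rank 3425). In the deposited −log10 q value, 14 of the 22 peaks had the highest value of the list, 3.67, which 2315 of the 3845 optimal peaks share.

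In the pooled relaxed list, 42 of the 44 genes (95.5%) had a start site within 1 kb of a summit, against 63.4% of all protein-coding genes. Mcm3, a helicase subunit gene, and Klp61F, the gene of the mitotic kinesin-5, had none. Among the 22 genes that were not called, 20 (90.9%) had such a pooled summit, with a median signal of 69.5 and a range of 41.4 to 106. Of the other uncalled protein-coding genes 52.8% had such a summit, with a median of 57.7. The strongest uncalled genes were E2f2 (106) and Rbf (105), just under the weakest optimal peak at 112.0, and the weakest called gene, CycD (121), lay just over it. The pooled signal thus graded from 41.4 to 382 across the 42 genes, and the division into called and uncalled genes falls where the authors set their threshold. An uncalled gene is one with a weaker pooled peak or none, and its promoter is not shown to be free of the protein. The relaxed list holds peaks and background, so a weak pooled peak is not shown to be binding either. Deposited −log10 q values at the 20 uncalled genes ran from 0.102 (Orc2) to 2.35 (E2f2). Of their summits, 5 were matched in 1 replicate only. Another gene was nearer at 7 (stg, twe, E2f1, E2f2, Mcm6, Bub1 and gammaTub37C), and 4 lay in coding sequence (dap, fzy, cid and pav).

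**Figure D1:**
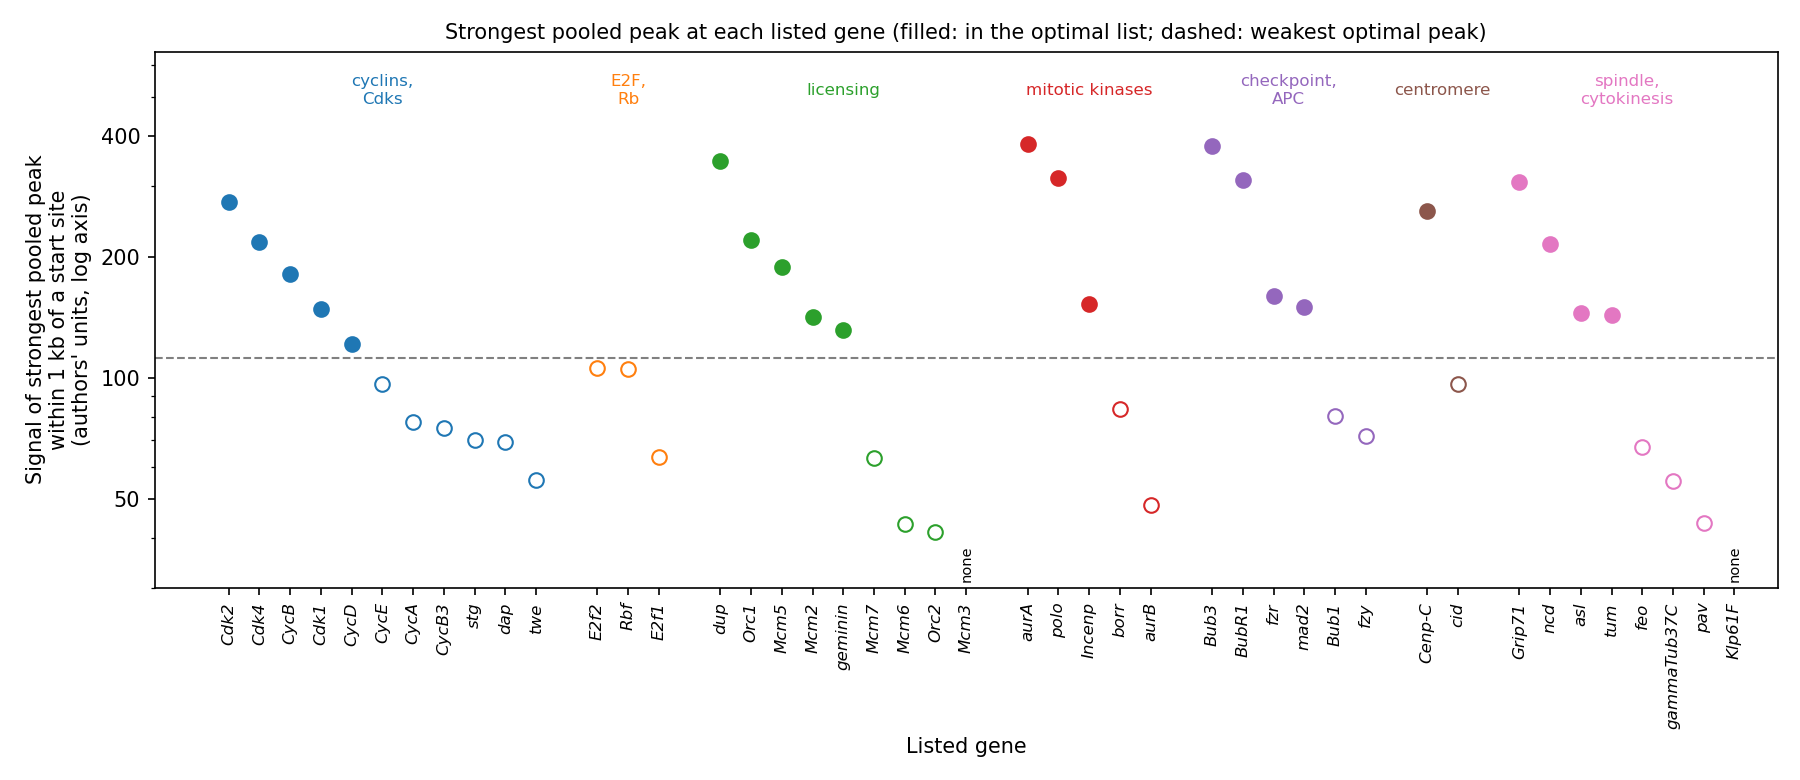
Signal of the strongest pooled peak within 1 kb of a start site for each of the 44 genes, on a log axis in the authors' units, with genes grouped by role. Filled points are the 22 called genes, open points the 20 genes with a weaker pooled peak, and the dashed line the weakest optimal peak at 112.0. Each group but E2F and Rb has points on both sides of the line, and Mcm3 and Klp61F have no peak.

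Each replicate was also read on its own, by its 3845 strongest peaks. Replicate 1 had such a peak within 1 kb of 19 of the 44 genes (43.2%), against 22.5% of all protein-coding genes. Replicate 2 had 20 (45.5%), against 21.3%, and replicate 3 had 23 (52.3%), against 22.9%. The mean was 20.7 ± 2.08 genes (SD, n = 3), or 47.0% ± 4.73 against 22.2% ± 0.821 of all genes, and the listed genes lay above all genes in 3 of 3 replicates. Of the 22 called genes, 13 were in the strongest peaks of all 3 replicates: CycB, Cdk2, Cdk4, dup, Mcm5, Orc1, polo, aurA, BubR1, Bub3, Cenp-C, tum and Grip71. CycD, Cdk1, geminin, Incenp, mad2, fzr, ncd and asl were in those of 2, and Mcm2 in those of replicate 2 alone. Among uncalled genes, CycA, CycB3, CycE, Rbf, cid and pav were in the strongest peaks of 1 replicate each.

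Requiring optimal peaks to be matched among the strongest peaks of both remaining replicates left 15 called genes without replicate 1, 14 without replicate 2 and 15 without replicate 3. All protein-coding genes fell to 15.3%, 16.5% and 16.5% under the same rules, since each asks more of a peak than the deposited list does. CycB, Cdk2, Cdk4, dup, Mcm5, Orc1, polo, BubR1, Bub3, Cenp-C, tum and Grip71 stayed called in all 3 cases, 12 genes in all. Of the 10 others, Cdk1 and Mcm2 were lost in all 3 cases. CycD, geminin, aurA, Incenp, mad2, fzr, ncd and asl were kept or lost depending on which replicates were asked.

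Among the cyclins, cyclin-dependent kinases and their regulators, 5 of 11 genes were called (45.5%, against 22.4% of all protein-coding genes). The 5 called genes had a median signal of 181. They were the kinase genes Cdk2, Cdk4 and Cdk1 and the cyclin genes CycB and CycD. Cdk2, whose kinase starts replication with Cyclin E, had the strongest peak of the group (3R, 20735526 to 20735631, signal 273), with the summit 5 bp upstream of the start site. Its relative signals were 1.36, 1.17 and 1.88 in replicates 1 to 3, a mean of 1.47 ± 0.368 (SD, n = 3), so all replicates lay above their median. The start of the microRNA gene mir-995 lay 305 bp from the same summit. Cdk4, the partner of Cyclin D in growth and G1 progression, had its summit 588 bp upstream (2R, 16578672 to 16579091, signal 218), the longest distance of any called gene. Its relative signals were 1.35, 0.919 and 1.11 in replicates 1 to 3, with a mean of 1.12 ± 0.216, on both sides of the median.

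The other called genes of this group had weaker peaks. At CycB, a cyclin of mitotic entry, the summit lay 98 bp upstream (2R, 22806836 to 22807255, signal 181), and at CycD 495 bp upstream (X, 15909961 to 15910380, signal 121). At Cdk1, the kinase that drives mitotic entry, the summit lay 274 bp upstream (2L, 10386326 to 10386745, signal 149), but the start of the mitochondrial ribosomal protein gene mRpS7 was nearer, at 126 bp. Mean relative signals of these 3 genes ran from 0.649 (CycD) to 0.985 (CycB), at or below the median of all matched peaks. CycD varied most of them, with 0.724 in replicate 1, 0.937 in replicate 2 and 0.287 in replicate 3. Without replicate 1 or without replicate 2 the group's count fell from 5 to 3, with CycD and Cdk1 lost. Without replicate 3 it was 4, with Cdk1 lost.

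The 6 uncalled genes of this group all had a pooled peak, with −log10 q values from 0.387 (twe) to 2.05 (CycE). CycE, the cyclin of S phase entry, had the strongest (96.7), followed by CycA (77.6), a cyclin of S phase and mitosis. The weakest were at dap (69.1), the gene of a Cdk2 inhibitor, and twe (55.5), a Cdc25 phosphatase gene of meiosis and early divisions. The pooled signals at the mitotic cyclin gene CycB3 (75.2) and at stg (69.8) lay between them. The summit at stg was nearer to another gene, CG45544, and that at twe to CG4935. The called genes thus included 3 of 3 listed kinases, 2 of 5 listed cyclins and neither of the Cdc25 phosphatases, against 22.4% of all protein-coding genes. These counts are too small to compare the kinds of gene. The call of Cdk1 was also lost without each replicate in turn and with the nearest start site only.

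None of the 3 genes of the E2F and Rb group was called, a group too small for a count of 0 to limit the share. E2f1 codes for the activating factor of S phase genes, E2f2 for a repressive factor, and Rbf for the retinoblastoma-family protein that binds both. E2f2 had a pooled peak of 106 with a summit 30 bp upstream, though the start of Mpp6 was 26 bp away on the other side. Its relative signals were 0.541, 0.61 and 0.596 in replicates 1 to 3, the most even of the group. Rbf had a pooled peak of 105, 302 bp upstream, with relative signals of 0.681, 0.5 and 0.33, which covered a wider range. At the start sites of E2f1 the strongest pooled peak had a signal of 63.3.

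E2f1 had an optimal peak of another kind, within the gene but away from its start sites. Its summit lay in an intron (3R, 21641426 to 21641845, signal 118), 3142 bp upstream of the nearest annotated start site of the gene. The relative signal was 0.649 in replicate 1 and 0.549 in replicate 2, and replicate 3 had no summit within 100 bp. Gene bodies held an optimal summit in 5 of the 44 genes (11.4%: dup, geminin, polo, ncd and E2f1), against 10.9% of all protein-coding genes. Outside 1 kb of every start site of the gene this left E2f1 alone (2.27%), against 4.84%. The body counts were thus near those of all genes.

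Of the 9 replication licensing genes, 5 were called (55.6%, against 22.4% of all protein-coding genes), with a median signal of 189. dup, the gene of the Cdt1 protein that loads the helicase, had the strongest peak (2R, 15380607 to 15380740, signal 347), 83 bp upstream of its nearest start site, and the start of the kinase gene SRPK was nearer, at 27 bp. Its relative signals were 2.14 in replicate 1, 1.35 in replicate 2 and 1.88 in replicate 3, a mean of 1.79 ± 0.403 (SD, n = 3), all above the median. Orc1, a subunit gene of the origin recognition complex, had its summit 46 bp upstream (2R, 7525552 to 7525971, signal 221). There the 3 replicates gave 1.09, 1.01 and 1.43, a mean of 1.18 ± 0.224, and the nearest other start site was 3528 bp away. The peak of Orc1 thus had no nearer gene, unlike that of dup.

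The helicase subunit genes Mcm5 (3R, 10788062 to 10788481, signal 189) and Mcm2 (3R, 8264705 to 8265124, signal 142) were also called. The summit at Mcm5 lay 252 bp upstream and nearer to Art1, an arginine methyltransferase gene, at 46 bp. The summit at Mcm2 lay 55 bp upstream and 464 bp from RPA1, a single-strand binding protein gene of replication on the opposite strand. Mcm2 had relative signals of 0.591, 1.37 and 0.471, a mean of 0.811 ± 0.489 (SD, n = 3). Among called genes with 3 matches only Grip71 had a larger SD, 0.556, on a higher mean of 1.67. The peak at geminin (2R, 6656170 to 6656589, signal 131), whose product inhibits Dup, had its summit 21 bp downstream of a start site, in the 5′ UTR, and was the only one of the 22 on that side. Its mean relative signal was 0.749 ± 0.141 (SD, n = 3).

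Mcm7 (63.0), Mcm6 (43.3) and Orc2 (41.4) had weak pooled peaks, and Mcm3 had none. Subunits of the same complex thus differed in signal: of the 5 listed helicase genes, Mcm2 and Mcm5 were called while Mcm3, Mcm6 and Mcm7 were not, and Orc1 was called while Orc2 was not. An optimal peak of signal 226 lay 1177 bp from the start site of Mcm3, beyond the 1 kb limit, and 18 bp from that of Rnp4F. The group's count fell from 5 to 3 without replicate 2 or without replicate 3, with geminin and Mcm2 lost. Without replicate 1 it was 4, with Mcm2 lost. It also fell to 3 where a summit was given only to its nearest gene.

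Of the 5 genes of mitotic kinases and the passenger complex, 3 were called (60%, against 22.4% of all protein-coding genes). Their median signal was 314. aurA codes for the Aurora A kinase of centrosome maturation, and its summit lay 74 bp upstream (3R, 11962840 to 11963259, signal 382), with CG3281 at 245 bp. The relative signal was 1.97 in replicate 2 and 2.32 in replicate 3, a mean of 2.15 ± 0.242 (SD, n = 2). Replicate 1 had no summit within 100 bp but had 1 on each side, at 106 bp with a relative signal of 1.77 and at 103 bp with 0.714. All 3 replicates thus had a peak with a relative signal above 1 upstream of aurA.

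polo, the gene of the Polo kinase that acts from mitotic entry to cytokinesis, had its summit 37 bp upstream of its nearest start site (3L, 20309800 to 20310219, signal 314). The summit lay in the 5′ UTR of a transcript from another start site, and the nearest other gene was SCCRO4 at 2360 bp. Relative signals were 1.66, 1.28 and 2.21 in replicates 1 to 3, with a mean of 1.72 ± 0.471 (SD, n = 3), all above the median. Incenp, the scaffold of the passenger complex, had a weaker peak 296 bp upstream (2R, 7277961 to 7278380, signal 153). The chromatin gene Br140 was nearer to it, at 70 bp, and its mean relative signal was 0.809 ± 0.263.

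The partners of Incenp in the passenger complex were not called. borr, the Borealin gene, had a pooled peak of 83.5 and aurB, the Aurora B kinase gene, a pooled peak of 48.2. The genes of the Aurora A and Aurora B kinases thus had pooled signals near the top and near the bottom of the list. Without replicate 2 the group's count fell from 3 to 1, polo alone: aurA had no matched summit in replicate 1, and the Incenp peak ranked 4116 in replicate 3, outside its 3845 strongest.

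In the spindle checkpoint group 4 of 6 genes were called (66.7%, against 22.4% of all protein-coding genes), with a median signal of 235. Bub3 had its summit 122 bp upstream (3R, 29675442 to 29675620, signal 377), between it and the condensin subunit gene Cap-D2, whose start site was nearer at 108 bp. Its relative signals were 1.99, 1.54 and 2.22 in replicates 1 to 3, with a mean of 1.91 ± 0.346 (SD, n = 3). BubR1, the checkpoint kinase gene, had its summit 78 bp upstream (2R, 5974253 to 5974672, signal 311), with no other start site nearer than that of mle at 5638 bp. Its replicates gave 1.66, 1.89 and 1.45, a mean of 1.67 ± 0.218. Both genes lay above the median in every replicate, and BubR1 did so at a promoter that no other gene shares.

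mad2, whose product joins BubR1 and Bub3 in the complex that holds back anaphase, had a peak 75 bp upstream (3L, 5812958 to 5813377, signal 150). It was matched in replicates 1 and 3, at relative signals of 0.884 and 1.47, while the nearest summit of replicate 2 was 1386 bp away. Replicate 2 thus listed no peak at this promoter. fzr, the Cdh1-type activator of the anaphase-promoting complex, had its summit 412 bp upstream (X, 4679739 to 4680158, signal 159.6) and a mean relative signal of 0.814 ± 0.343 (SD, n = 3). fzy, the Cdc20-type activator on which the checkpoint acts, and Bub1, a checkpoint kinase gene, were uncalled with pooled signals of 71.6 and 80.6. The pooled summit at fzy lay in its coding sequence, 664 bp downstream of the start site. That at Bub1 lay 336 bp upstream, and 19 bp from the start of Nin. Without replicate 1 or without replicate 3 the group's count fell from 4 to 2, with mad2 and fzr lost.

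Of the pair of centromere genes, Cenp-C was called and cid was not. Cenp-C codes for a protein that binds centromeric nucleosomes, and its summit lay 69 bp upstream (3R, 8563826 to 8564245, signal 260.3). Relative signals were 1.35, 1.1 and 1.7 in replicates 1 to 3, with a mean of 1.38 ± 0.304 (SD, n = 3), all above the median. The nearest other start site was that of an antisense RNA, CR44291, at 238 bp. cid, the gene of the centromeric histone H3 variant, had a pooled peak of 96.3 whose summit lay in its coding sequence, 287 bp downstream of the start site. It was matched in replicates 1 and 2, at relative signals of 0.43 and 0.282, while replicate 3 had no summit within 100 bp of it. Replicate 3 had another peak within 1 kb of the start site of cid, at a relative signal of 0.989, so the replicates placed signal differently around this gene.

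Of the 8 genes of the spindle, centrosome and cytokinesis, 4 were called (50%, against 22.4% of all protein-coding genes). Their median signal was 179.9. Grip71, which recruits gamma-tubulin complexes to the spindle, had the strongest peak (2L, 18708594 to 18708770, signal 308), 170 bp upstream, and the start of Faf2 was nearer, at 12 bp. Its relative signals were 1.16 in replicate 1, 2.26 in replicate 2 and 1.58 in replicate 3. Their mean was 1.67 ± 0.556 (SD, n = 3), the largest SD of all called genes. ncd, the gene of a minus-end directed kinesin, had a peak at 215 (3R, 29806592 to 29807011) with its summit 55 bp upstream of the nearest start site and 9 bp from that of claret (ca). It was matched at 1.25 in replicate 2 and 1.85 in replicate 3, and the nearest summit of replicate 1 was 235 bp away. A second optimal peak, of signal 154, had its summit 91 bp downstream of an ncd start site, so that the 22 called genes had 23 optimal peaks.

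asl, the gene of a centriole duplication protein (3R, 5606466 to 5606885, signal 145), and tum, a centralspindlin subunit gene (2R, 13858495 to 13858914, signal 144), had weaker peaks. Their summits lay 133 bp and 16 bp upstream, and their mean relative signals were 0.683 ± 0.237 and 0.774 ± 0.123 (SD, n = 3). pav, the kinesin gene whose product is the partner of Tumbleweed in centralspindlin, had a pooled peak of 43.4. Of the other uncalled genes, feo, a midzone microtubule bundler, had 67.3, gammaTub37C, the maternal gamma-tubulin gene, had 55.4, and Klp61F had no pooled peak. Without replicate 2 the group's count fell from 4 to 2, with ncd and asl lost.

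The next comparison was of position. In 21 of the 22 called genes (95.5%) the summit lay upstream of the nearest start site of the gene, against 83.5% of the other called protein-coding genes. In 13 it lay within 100 bp, and the median distance was 80.5 bp against 145 bp. The summit was outside the gene in 18 cases and in a 5′ UTR in 4. All but Cdk4 were within 500 bp, which is 95.5% against 85.1% of other called genes. Most of these peaks thus lay just upstream of the gene, and 13 of 22 (59.1%) had another protein-coding start site within 1 kb of the summit, against 65.7% of other called genes.

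**Figure D2:**
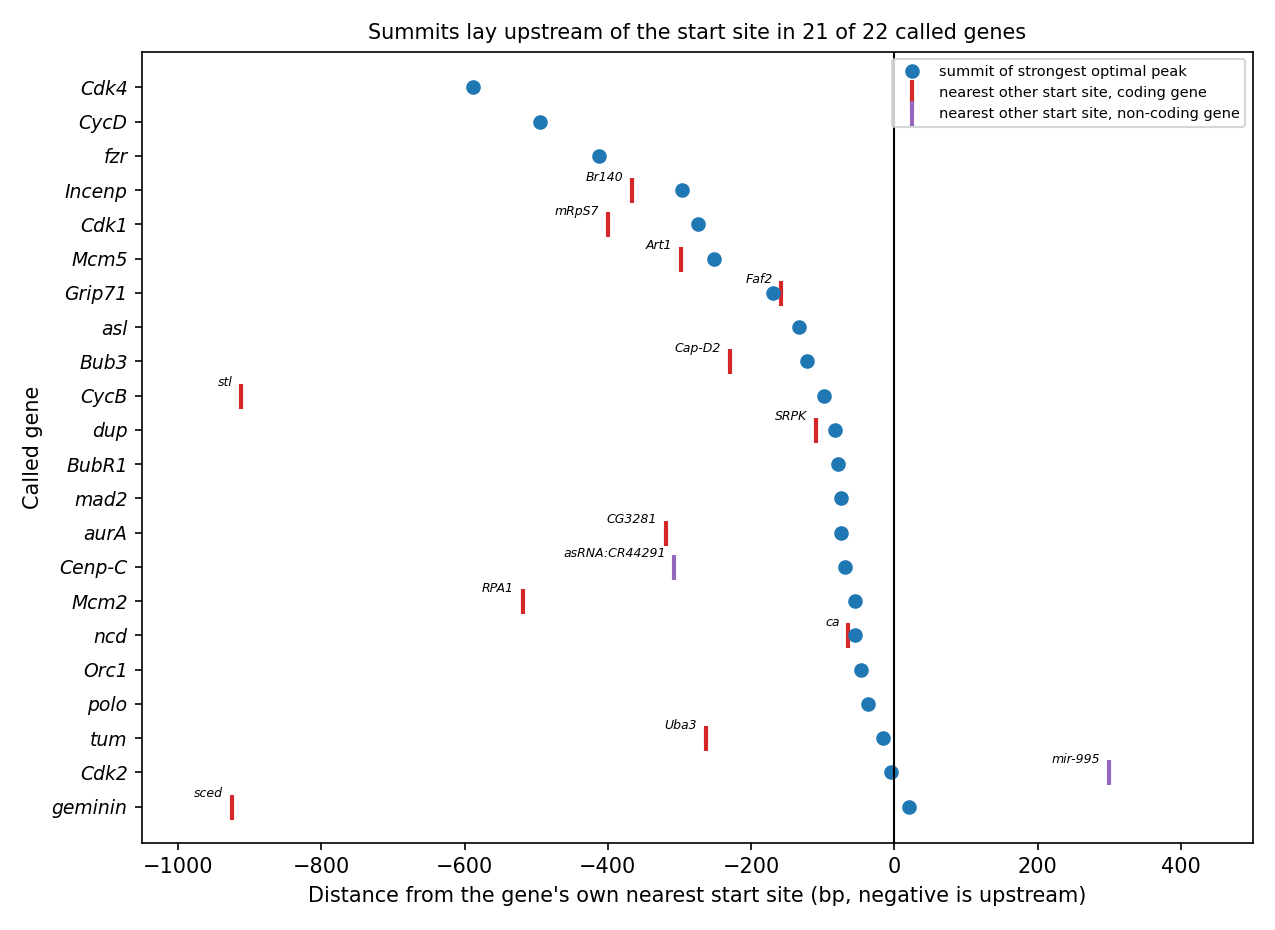
Distance in bp from the nearest start site of each called gene (at 0, negative upstream) to the summit of its strongest optimal peak (points) and to the nearest other start site (bars) where that lay in the plotted range. All points but that of geminin lie left of 0, and at 7 genes the bar of another gene is closer to the point than 0 is.

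The start site of another gene was nearer to the summit in 7 of the 22 genes (31.8%), against 33.8% of other called genes: Cdk1, dup, Mcm5, Incenp, Bub3, Grip71 and ncd. Giving each summit only to its nearest start site left 16 of the 44 genes (36.4%), against 15.6% of all protein-coding genes, with ncd kept through its second peak. A divergent protein-coding neighbour, transcribed away from a start site within 1 kb upstream, was present at 22 of the 44 genes (50%) and at 36.2% of other protein-coding genes. Among other genes, 40.1% of those with such a neighbour were called and 12.2% of those without. Among the listed genes, 12 of 22 with a neighbour (54.5%) and 10 of 22 without (45.5%) were called. The listed genes without a divergent neighbour were Cdk2, Cdk4, CycD, Orc1, polo, BubR1, mad2, fzr, Cenp-C and asl among those called. The summit at CycD still lay 699 bp from the start of Lrp4, and that at Cenp-C 238 bp from the antisense RNA CR44291. The part of shared promoters in the list's count was not tested.

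The same peaks were then compared between replicates. Of the 22 strongest peaks, 19 (86.4%) were matched in all 3 replicates, against 89.1% for other called genes, and aurA, ncd and mad2 each lacked 1 match. The relative signal was above 1 on average in 12 genes and above 1 in every matching replicate in 10, including aurA, Bub3, dup, polo, BubR1 and Grip71. It was below 1 in every replicate in 5: CycD, Cdk1, geminin, tum and asl. Spearman's rho of signal across the matched peaks of called genes was 0.61 for replicates 1 and 2 (19 peaks), 0.74 for replicates 1 and 3 (20 peaks) and 0.59 for replicates 2 and 3 (21 peaks). Across all optimal peaks the values were 0.78, 0.73 and 0.70. These are descriptions across peaks of the same libraries, and peaks are not independent replicates. The order of the genes by strength was thus broadly shared, but each gene overlapped its neighbours in that order in the range of its replicates.

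**Figure D3:**
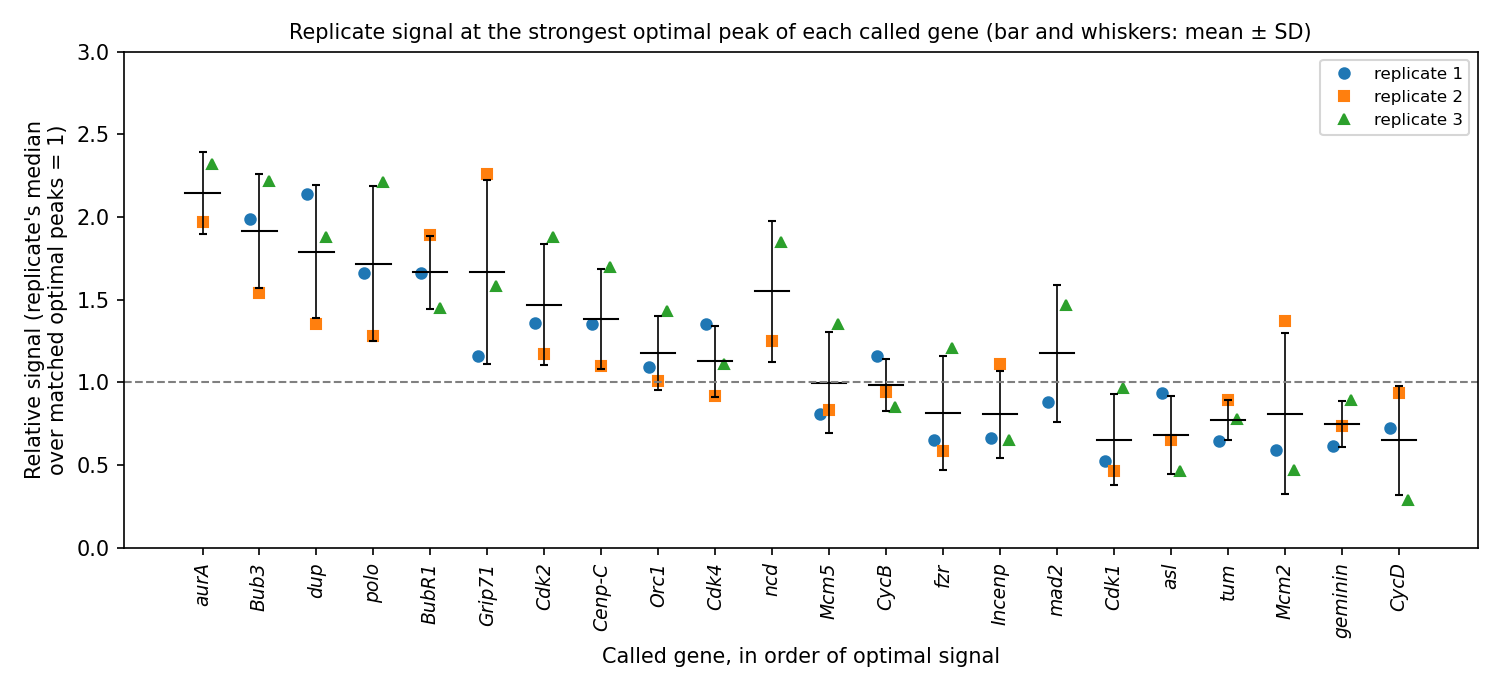
Relative signal at the strongest optimal peak of each called gene, as the replicate's signal divided by its median over matched optimal peaks, with genes ordered by optimal signal. Points are replicates, and bars and whiskers the mean and SD over 3 replicates, or over 2 for aurA, ncd and mad2. Genes from aurA to Orc1 have all points above 1, and the whiskers of neighbouring genes overlap.

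Short consensus words were counted within the 101 base windows around the 22 strongest summits, on both strands, and beside them in all 3845 optimal peaks. The forkhead words GTAAACA and ATAAACA were found in 1 window, that of Mcm2 (4.55% against 7.98% of all optimal peaks), as printed above. The DRE word TATCGATA was found at mad2 (4.55% against 3.09%), and the E2F words TTTGGCGC, TTTCCCGC, TTTCGCGC or TTTGCCGC at Grip71 (4.55% against 1.79%). The core promoter word motif 1 (GGTCACACT) was found at tum and ncd (9.09% against 1.27%), and the E-box CAGCTG at dup and polo (9.09% against 4.40%). The CHR word TTTGAA was found at Cdk1, aurA, Incenp and tum (18.2% against 15.9%). The Zelda word CAGGTAG and the GAGA word GAGAGAG were in no window, against 0.468% and 1.38% of all optimal peaks. At such shares their absence from 22 windows does not show that they are rarer here. With 22 windows, each word rests on at most 4 genes, and 12 of the 22 windows held none of the words. The median GC content of the windows was 40.6%, against 36.6% for all optimal peaks.

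The words were also counted from 250 bases before to 50 after a start site, windows longer than those at the summits, so that shares in the 2 kinds of window cannot be compared. E2F words were present at 8 of the 44 genes (18.2%), against 6.51% of all protein-coding genes: CycE, stg, Mcm2, Mcm3, Mcm5, Mcm6, Orc1 and Grip71. DRE words were also present at 8 (18.2% against 8.95%), among them the checkpoint genes BubR1, Bub1, Bub3 and mad2. Called and uncalled genes did not differ in either count, with 4 of 22 each. Motif 1 was present at 9 genes (20.5% against 5.87%), of which 3 were called and 6 were not. Forkhead words were present at 9 genes (20.5% against 21.3%), of which 4 were called and 5 were not. The CHR word was present at 24 (54.5% against 40.2%), of which 10 were called and 14 were not. The E-box was present at 6 genes (13.6% against 17.9%), the GAGA word at 3 (6.82% against 6.21%) and the Zelda word at none (against 1.72%). Called genes were thus not those with more of these words, and a match is a run of letters, not a site.

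The last comparison placed these genes among other genes of the same processes or gene families. A second list of 180 symbols in 11 groups was drawn up by function or family, and 167 were found in the annotation. Its other cyclins and kinases were listed by family, whether or not they act in the cell cycle. Of these, 70 were called (41.9%), with a median signal of 194. The second list thus lay between the 44 genes (50%) and all protein-coding genes (22.4%). In 30 of the 70 genes (42.9%) another gene was nearer to the summit, against 31.8% of the called genes among the 44.

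Shares in the groups of the second list ranged from 14.3% to 68.8%, against 22.4% of all protein-coding genes. Damage and mitotic entry kinases and phosphatases were called in 11 of 16 cases, led by the ATM kinase gene tefu (289), the Chk2 kinase gene lok (217) and the protein phosphatase gene mts (194). At these 3 genes another start site was nearer to the summit, that of Hsc70-4 at tefu, of barr at lok and of Rack1 at mts. E2F and DREAM complex genes were called in 5 of 8, led by Dp (632), lin-52 (243) and mip130 (210.4). Dp codes for the dimer partner of both E2F proteins, so the strongest peak among genes of that pathway lay at the partner, while E2f1, E2f2 and Rbf were uncalled. Condensin and cohesin genes were called in 11 of 21, led by the condensin genes SMC2 (499.9) and Cap-D2 (377) and the cohesin gene pds5 (413), and genes of motors and cytokinesis also in 11 of 21, led by the citron kinase gene sti (759), the CLASP gene chb (364) and the chromokinesin gene nod (268).

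Replication factors were called in 10 of 27 cases, led by chif (813), the ribonucleotide reductase gene RnrS (285) and the primase gene Prim1 (219.7). chif, the Dbf4-like activator of the Cdc7 kinase, had the strongest peak of both lists at rank 98, but its summit lay 1000 bp upstream, at the limit of the rule. Kinetochore and checkpoint genes were called in 6 of 16, led by Spc25 (264), cmet (247) and rod (201). Other cyclin and kinase genes were called in 5 of 12, led by Cdk12 (202), Cdk7 (194) and CycT (149). Centriole and centrosome genes were called in 4 of 13 (30.8%), led by tacc (316), cnn (307) and SAK (202). Gamma-tubulin and augmin genes were called in 4 of 14 (28.6%), led by wac (515), Grip84 (222) and gammaTub23C (197). In groups of this size, both shares differ from the 22.4% of all protein-coding genes by few genes.

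The lowest shares were among further origin and helicase subunits, 1 of 5 (dpa, the Mcm4 gene, 464), and among subunits and regulators of the anaphase-promoting complex, 2 of 14 (vih, its ubiquitin-conjugating enzyme, at 146 and Rca1, an inhibitor, at 119). With dpa, 3 of the 6 helicase subunit genes Mcm2 to Mcm7 were called. The anaphase-promoting complex had the lowest share within the second list, 14.3% against 22.4% of all protein-coding genes, a difference of few genes at this size. Its activator gene fzr and the checkpoint genes BubR1, Bub3 and mad2 were called, while its other listed activator gene fzy and the checkpoint gene Bub1 were not. The groups are small, were chosen with earlier results known and were not tested against each other.

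**Figure D4:**
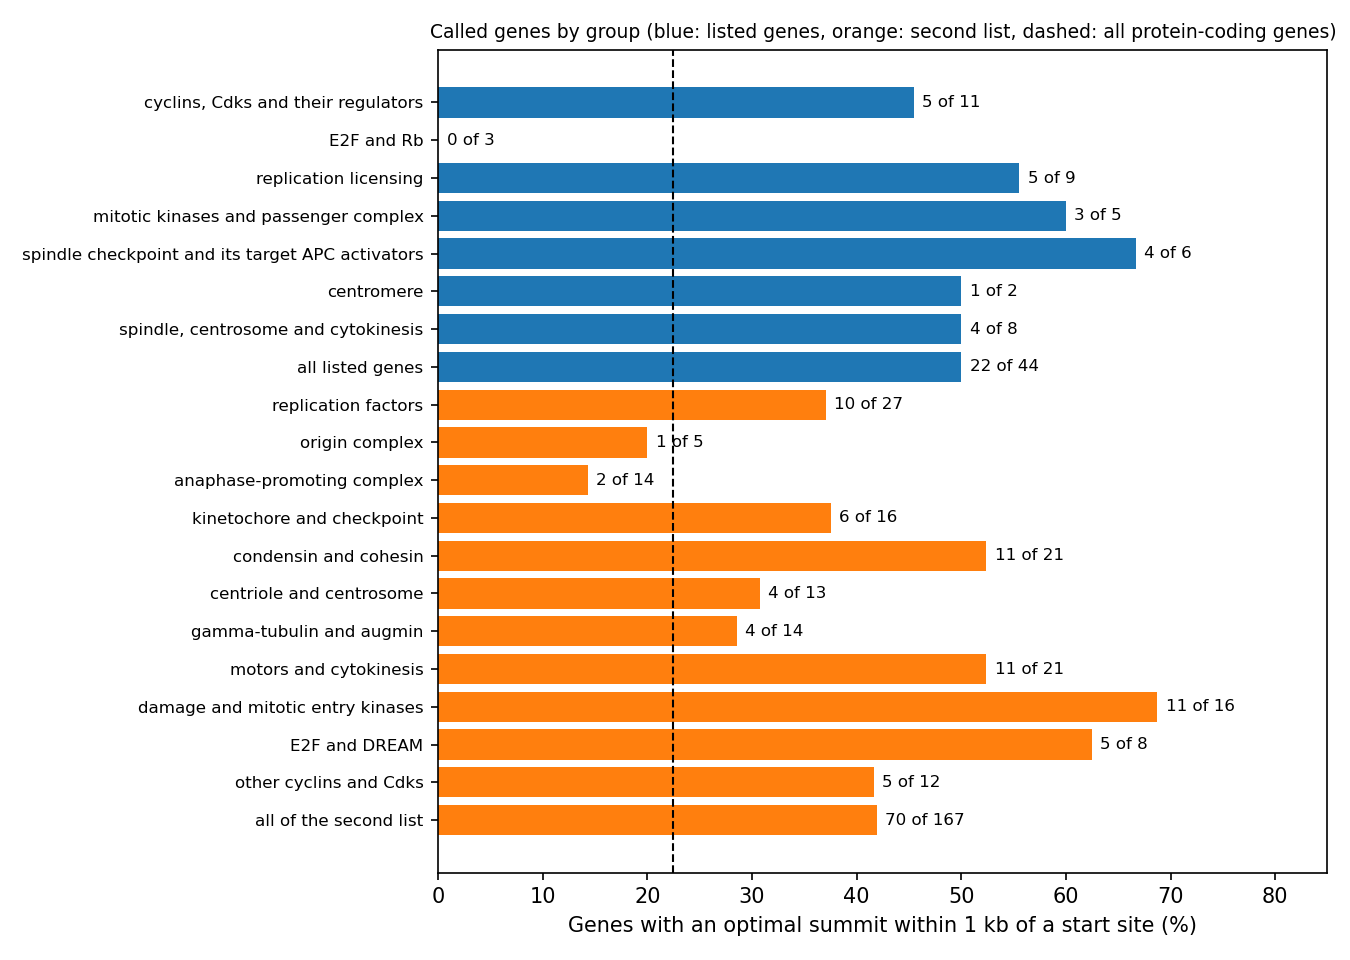
Percentage of genes called by an optimal peak near a start site, in the 7 groups of the 44 genes (blue) and the 11 groups of the second list (orange), with counts beside each bar. The dashed line is the share of all protein-coding genes, 22.4%, and the bars for E2F and Rb (0 of 3), the origin complex (1 of 5) and the anaphase-promoting complex (2 of 14) end left of it.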

How the data were processed

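Peak lists of ChIP-seq in 3 biological replicates of 1 group were analysed. The authors deposited, per the readme files, relaxed lists of peaks and background per replicate and for the pooled replicates, and an optimal list thresholded by the irreproducible discovery rate procedure, in dm6. A control alignment is named there as an input to each list. Each list gives a peak signal and a −log10 q value by the authors, neither scaled between lists. Which peak caller and threshold were used, and how deeply the libraries were sequenced, is not given in the sources used here. No interval for counting error can therefore be given.

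Genes came from Ensembl release 115 on BDGP6.54, and sequences from the RefSeq copy of the same assembly. Arm lengths, annotation and peaks were compared and agree in extent. Summits were assigned to every gene with a start site within 1 kb, and replicate summits were matched within 100 bp, taking the strongest. Both steps were checked on 200 simulated peaks. Python 3.11.15, numpy 2.4.6, pandas 2.3.3, scipy 1.17.1 and matplotlib 3.10.9 were used.

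The 44 genes, the second list, the words and the rules were chosen with earlier results of these data known. Of the second list, 13 of 180 symbols had no match and were left out. Every called gene is named with its strongest peak, replicate values are given for the 2 strongest called genes of each group, and uncalled genes by their strongest pooled peak. In the second list the 3 strongest called genes of each group are named. Alternatives changed the distance, the matching, the start sites, the strength of peaks and the replicates. Lists in dm3 were not used here.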

Additional observations from a re-analysis of the deposited data

How the results depend on the processing

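The count of 22 called genes fell to 13 (29.5%) with only the 1922 strongest optimal peaks, where all protein-coding genes fell to 12.7%, and to 14 to 15 with each replicate left out in turn. It was 21 (47.7%, against 19.7%) within 500 bp, 32 (72.7%, against 40.2%) within 5 kb, 16 with the nearest start site only and 21 with 1 start site per gene. The 42 genes with a pooled summit (95.5%, against 63.4% of all protein-coding genes) became 38 within 500 bp and 44 within 5 kb. They became 38 with pooled peaks at or above the median signal. Shares of all protein-coding genes under these changed rules are not given here, so the changed counts cannot be set against them. The 5 genes with an optimal summit in the body became 1 over 1 kb from every start site. The 19 peaks matched in all replicates became 13 with summits within 50 bp, 21 within 250 bp and 21 by an overlap of 1 bp. Relative signals divided by the median of the whole relaxed list ran from 2.06 to 6.19. This change of scale differed between replicates, so some genes of close value changed order. For example, ncd and Cdk2 went from 1.55 and 1.47 to 4.48 and 4.7. No paired analysis was possible because there is 1 group.

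The limits are the unknown depth, the absence of a control sample here, the mixed ages and tissues of the embryos, and groups of 2 to 11 genes. The effect of the depth, the control and the mixed embryos on the counts was not tested. Assignment by position changes the counts as given above.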

Other observations

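Over both gene lists, 5 optimal peaks each lay within 1 kb of the start sites of 2 listed genes. The strongest, of signal 377, was shared by the checkpoint gene Bub3 and the condensin subunit gene Cap-D2. That between barr, another condensin subunit gene, and the Chk2 kinase gene lok had a signal of 217, and that between SAK, the centriole duplication kinase gene, and Cdk12 had 202. Mcm2 and RPA1, a helicase subunit and a single-strand binding protein of replication, shared a peak of 142, and the kinetochore gene Zw10 and the kinesin gene Klp3A shared a peak of 121. In each of these a single peak was counted for both genes.

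Of the 22 uncalled genes, 10 had a start site within 5 kb of an optimal summit: CycE, E2f1, E2f2, Mcm3, Mcm6, aurB, cid, pav, feo and Klp61F. In all 10 the start site of another gene was nearer to that summit, and how often this holds for other uncalled genes is not given here. At pav it was Sqor, at 21 bp from a summit of signal 326, and at Klp61F it was Sac1, at 96 bp from a summit of signal 198. At CycA the nearest optimal summit was 124896 bp away, the farthest of the list.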
